A study of Mus musculus with 6 samples.

Results

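A set of 10 genes of interleukin 1 (IL-1) and interleukin 6 (IL-6) signalling were followed in the livers of WT and Vps15LKO mice. They were taken by name from the 56305 genes of the deposited table, with earlier results of these data known. The IL-1 side holds the agonists Il1a and Il1b, the antagonist Il1rn and the signalling receptor Il1r1. The IL-6 side holds the ligand Il6, its binding receptor Il6ra, the shared signal transducer Il6st (gp130), the oncostatin M receptor Osmr, the transcription factor Stat3 and the feedback inhibitor Socs3. All 10 genes were found in the table, and 9 of the 10 had enough reads to be tested.

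The study compared 3 WT with 3 Vps15LKO male mice of 5 weeks, fed ad libitum and killed at zeitgeber time (ZT) 6, with 1 RNA library per liver (6 libraries). Vps15LKO mice (AlbCre+;Vps15f/f) carry floxed Vps15 alleles cut by a Cre that the albumin promoter drives, which deletes Vps15, the regulatory subunit of class 3 PI3K, in hepatocytes. The albumin promoter is also active in the hepatoblasts from which cholangiocytes arise, so deletion in other liver cells is possible. The labels call the controls WT, and whether they carry the floxed alleles or Cre is not given in the sources used here. Each library is a different mouse, and no replicate number is tied to a litter.

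IL-1α and IL-1β bind IL-1R1, which recruits the accessory protein IL-1RAP and signals through MyD88, IRAK kinases and TRAF6 to NF-κB, whereas the IL-1 receptor antagonist occupies the receptor without signalling. IL-6 binds its receptor IL-6Rα and then gp130, while oncostatin M uses gp130 together with OSMR or LIFR, and these receptors act through JAK kinases on STAT3, which induces its own inhibitor SOCS3. In liver, Kupffer cells and other myeloid cells are known sources of the ligands, and hepatocytes answer both cytokines with the acute-phase response.

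The libraries held 16137093 to 18110223 reads on genes. The authors divided WT counts by size factors of 0.742 to 0.801 and Vps15LKO counts by factors of 1.23 to 1.41, so the scaling bears on every value below. With the deposited scaling the median log2 fold change of the 15430 tested genes was −0.02, and it was 0.70 when libraries were scaled to the same total of reads. Of these genes 66.5% were called different, 33.5% higher and 33% lower in Vps15LKO livers, and for 73.2% the 2 groups did not overlap. A call means an adjusted p under 0.05 in limma on log2(normalized count + 1) with a fold of at least 1.2, and fold changes on this scale understate those of genes with few reads. Pik3r4, which encodes Vps15, fell from 514 ± 57.1 to 353 ± 11.02 normalized counts (SD, n = 3; log2 fold change −0.54, adjusted p = 0.00207), and its value was 0.19 (adjusted p = 0.163) with the total-read scaling. In whole liver, fewer cells of a type and less RNA per cell cannot be told apart.

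In Vps15LKO livers Il1a, Il1b, Il1rn and Osmr rose, Il6ra fell, and Il1r1, Il6st, Stat3 and Socs3 were not called. The 4 higher and 1 lower calls make up 55.6% of the 9 tested genes, against 66.5% of all genes, and the groups did not overlap for 4 of the 9 (44.4%), against 73.2% of all genes. The largest rise was that of Il1rn, whose absolute log2 fold change was above that of 97.1% of tested genes, while those of Stat3, Il6st and Il1r1 lay above only 6.59%, 8.57% and 9.23% of them. The same 4 higher and 1 lower counts were obtained with TMM scaling, upper-quartile scaling, edgeR, DESeq2 and limma voom. Quantile normalization also gave 4 higher and 1 lower, with Il6st and Stat3 called in place of Il1a and Il1b. Of all 15430 genes it called 4692 higher and 5801 lower. With the total-read scaling 8 of the 9 genes were called higher, against 66.8% of all genes, and Il6ra remained the 1 called lower, against 11.1%.

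**Figure D1:**
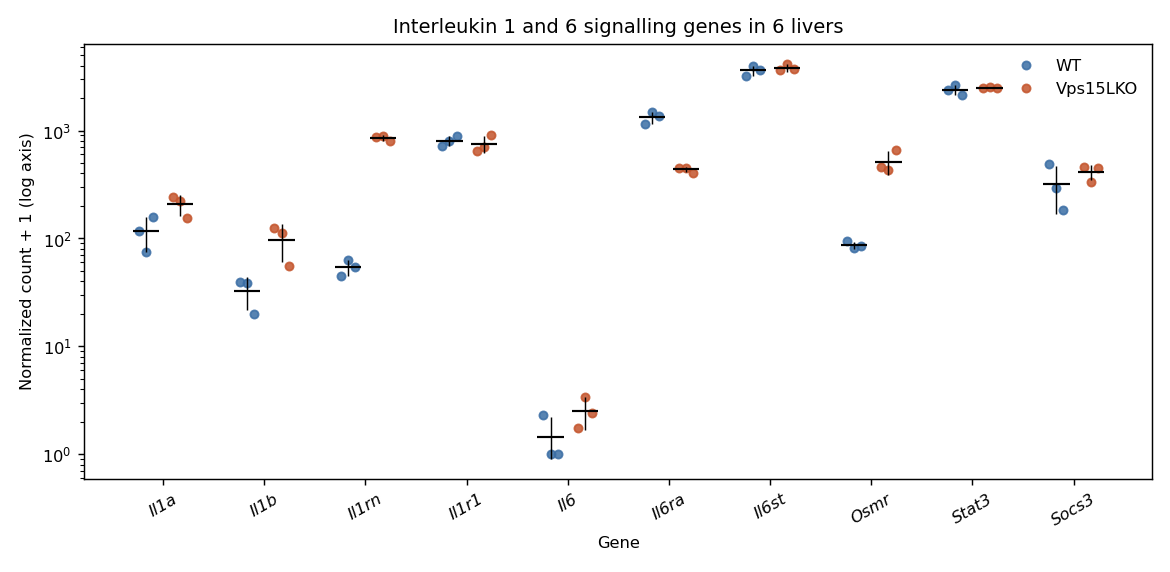
Normalized counts plus 1 (y, log axis) of the 10 genes (x) in each liver, with WT livers in blue and Vps15LKO livers in orange. Horizontal lines are group means and vertical lines 1 SD (n = 3). Il1rn sits at 43.8 to 62.5 in WT mice and at 791 to 898 in Vps15LKO mice, Il6ra moves the opposite way, and Il6 lies at the bottom in all 6 livers.

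The agonists of the IL-1 receptor were low in WT liver and higher in Vps15LKO liver. Il1b, the inducible agonist that is made as an inactive precursor, was at 38.5, 37.5 and 18.9 normalized counts in WT mice and at 125, 110.2 and 54.5 in Vps15LKO mice. The lowest Vps15LKO liver was above the highest WT liver. The log2 fold change was 1.56 ± 0.37 (SE), with an adjusted p of 0.00558, and the mean was 3.06-fold higher. With quantile normalization, which forces 1 distribution of values on all libraries, it was 0.97 and the call was lost (adjusted p = 0.051).

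Il1a, the agonist that is active without cleavage, was at 117, 73.7 and 156 normalized counts in WT mice and at 242, 223 and 154 in Vps15LKO mice. WT replicate 3 and Vps15LKO replicate 3 were nearly equal, so the groups overlapped. The log2 fold change was 0.87 ± 0.28 with an adjusted p of 0.022. With 1 liver fewer the call was lost in 4 of 6 fits, at 0.91 without WT replicate 1 (adjusted p = 0.0504), 0.58 without WT replicate 2 (adjusted p = 0.0626), 0.74 without Vps15LKO replicate 1 (adjusted p = 0.0824) and 0.80 without Vps15LKO replicate 2 (adjusted p = 0.0583). With quantile normalization it was 0.56 and not called (adjusted p = 0.099). Il1a (chromosome 2, 129299610 to 129309972 of GRCm38) lies 54.6 kb from Il1b (129364570 to 129371139) with no other coding gene between them. The exons of Il1a share 222 bases (11.2%) with the opposite-strand transcript Gm14023, whose normalized counts ranged from 17.5 to 56.6 in WT mice and from 38.2 to 49.6 in Vps15LKO mice.

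The receptor antagonist rose far more than either agonist. Il1rn (chromosome 2, 24336853 to 24351494) was at 43.8, 62.5 and 53.9 normalized counts in WT mice and at 872, 898 and 791 in Vps15LKO mice. The 3 livers of each genotype lay close together and the groups were far apart. The mean rose 15.99-fold, from 53.4 ± 9.36 to 854 ± 55.9, with a log2 fold change of 3.99 ± 0.15 and an adjusted p of 4.14e-07 in limma. The rise was 4.71 with the total-read scaling and 3.80 with quantile normalization, and it stayed between 3.85 and 4.11 when each liver was left out in turn. Within a library, scaling cancels. The ratio of Il1rn to Il1b reads was 1.14, 1.67 and 2.86 in WT mice and 6.96, 8.15 and 14.5 in Vps15LKO mice. With 1 added to each normalized count, the difference was 2.42 on the log2 scale (exact permutation test, two-sided, p = 0.1, adjusted p = 0.15 over the 6 ratios tested). A p of 0.1 is the smallest that 3 livers against 3 allow.

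RefSeq lists several starts for Il1rn, and the 250 bases before 2 of them are shown because this gene changed most among the 10. Sequences are from RefSeq on GRCm38.p6, written 5′ to 3′ on the plus strand, at chr2:24336610-24336859 and chr2:24345041-24345290. Capitals mark matches to the motifs searched on both strands.
Il1rn, first start: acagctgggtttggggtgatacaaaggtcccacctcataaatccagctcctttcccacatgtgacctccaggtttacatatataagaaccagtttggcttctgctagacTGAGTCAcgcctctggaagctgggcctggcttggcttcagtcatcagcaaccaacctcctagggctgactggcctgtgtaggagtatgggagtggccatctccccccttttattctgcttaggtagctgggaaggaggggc
Il1rn, second start: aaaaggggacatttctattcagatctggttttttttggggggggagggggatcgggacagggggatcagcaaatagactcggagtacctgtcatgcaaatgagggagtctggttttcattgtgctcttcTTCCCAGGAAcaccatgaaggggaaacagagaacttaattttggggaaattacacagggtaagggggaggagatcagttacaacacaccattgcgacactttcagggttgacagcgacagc
The first window holds TGANTCA, the AP-1 motif, 141 bases before the start, and the second holds TTCNNNNGAA, a wider STAT spacing, 121 bases before it. TGANTCA is found in 6.75% of the 32851 promoter windows of the same length in mouse and TTCNNNNGAA in 5.85%. A match of letters describes the window and is not a measured binding site.

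The signalling receptor was not called. Il1r1 was at 713, 793 and 883 normalized counts in WT mice and at 649, 700.1 and 902 in Vps15LKO mice. The groups overlapped throughout their range. Its log2 fold change was −0.09 with a 95% interval from −0.42 to 0.23 and an adjusted p of 0.571. Its sign depended on the scaling, with 0.03 under the upper-quartile, 0.06 under quantile and 0.63 under the total-read scaling, the last below the median of 0.70 for all genes under that scaling. The decoy receptor Il1r2, which binds IL-1 without signalling, had 3 reads over the 3 WT libraries and 16 over the 3 Vps15LKO libraries, a ratio of 3.10 with an exact 95% interval for counting error from 0.886 to 16.6. It did not pass the filter on low values, and limma without that filter did not call it (adjusted p = 0.183).

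Il1rap, the accessory chain without which IL-1R1 does not signal, fell more than any of the 10 genes. It was at 4803, 4474 and 3997 normalized counts in WT mice and at 496, 759 and 332 in Vps15LKO mice. All 3 Vps15LKO livers were far below the WT livers. The mean was 8.36-fold lower, with a log2 fold change of −3.14 ± 0.25 (adjusted p = 1.48e-05), −2.41 with the total-read scaling and −2.83 with quantile normalization. The exons of Il1rap share 4.86% of their bases with the antisense transcript Gm20319, whose normalized counts ranged from 1409 to 1512 in WT mice and from 130.1 to 276 in Vps15LKO mice. The libraries mark strand, but whether the authors counted reads by strand is not given in the sources used here.

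The other ligands, receptors and inhibitors of the IL-1 family comprised 15 genes, of which 7 were tested. Il36g and Il1rl2, a receptor chain for IL-36, passed the filter on low values only through the Vps15LKO livers and so had to differ. Of the other 5 tested genes 2 were called higher and 3 lower, against 33.5% and 33% of all genes, and their median log2 fold change was −0.53, which the 2 genes set by the filter would turn to 1.67. Il18bp, the secreted inhibitor of IL-18, rose from 407 ± 26.4 to 1436 ± 149 normalized counts (log2 fold change 1.81, adjusted p = 3.12e-06). Il33, an alarmin released from damaged cells, rose from 45.4 ± 11.6 to 145 ± 16.6 (1.67, adjusted p = 1.29e-04). Both were called higher under every scaling. Sigirr, an inhibitory receptor of the family, fell from 315 ± 27.4 to 182 ± 32.7 (−0.80, adjusted p = 0.00133) and Il18 from 229 ± 19.0 to 159 ± 17.9 (−0.53, adjusted p = 0.00592), but with the total-read scaling Sigirr was at −0.08 and Il18 at 0.19, neither of them called. Il36g, named after its values were seen, had 1 read over the WT libraries and 533 over the Vps15LKO libraries, a ratio of 309 (exact 95% counting interval 55.3 to 12240). Il36b, Il36rn and Il1f10 had no read in any library.

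The 17 genes of the cascade below IL-1R1 moved in both directions, with 5 called higher, 5 lower, 7 not called and a median of −0.06. These counts are close to the 33.5% higher and 33% lower of all genes. Irak3, the kinase-dead IRAK that restrains the pathway, was at 15.9, 45.0 and 36.4 normalized counts in WT mice and at 302, 215 and 348 in Vps15LKO mice. The groups did not overlap, and the log2 fold change was 3.20 ± 0.36 (adjusted p = 8.22e-05). Casp1, the protease that matures IL-1β, rose from 45.1 ± 15.9 to 106 ± 19.4 (1.25, adjusted p = 0.00271). The adaptor Myd88 (−0.12, adjusted p = 0.368) and the kinase Irak4 (−0.03, adjusted p = 0.772) were not called. Myd88 shares 11.3% of its exonic bases with Acaa1a on the opposite strand, which was at 2275 to 2786 normalized counts in WT mice and 1004 to 1243 in Vps15LKO mice. Traf6, the ubiquitin ligase below the IRAK kinases, fell by 0.34 on the log2 scale (adjusted p = 0.013) with the deposited scaling and was called higher, at 0.39, with the total-read scaling. The lower call of Traf6 was lost without Vps15LKO replicate 1 (adjusted p = 0.0587). Chuk, named after its values were seen, fell from 2106 ± 173 to 758 ± 147 (−1.49, adjusted p = 4.06e-05). It was also called lower, at −0.76, with the total-read scaling. Under that scaling 15 of the 17 genes were called higher and 1 lower, against 66.8% and 11.1% of all genes.

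Most genes known to be induced through NF-κB rose. Of 16 such genes 15 were tested, of which Tnf and Ccl2 passed the filter only through the Vps15LKO livers and so had to differ. Of the other 13 genes 11 were called higher and 1 lower, against 33.5% and 33% of all genes, and their median was 1.11, against −0.02 for all genes and 2.11 with Tnf and Ccl2 included. The gene called lower was Sod2 (−1.47, adjusted p = 1.76e-05, and −0.75 with the total-read scaling), named after its values were seen. Over all 15 the total-read scaling and quantile normalization each called 14 higher and 1 lower. Of all genes the total-read scaling called 66.8% higher and 11.1% lower, and quantile normalization called 4692 and 5801 of 15430. Ccl2, the chemokine that attracts monocytes, was at 17.2, 12.5 and 16.2 normalized counts in WT mice and at 2448, 1756 and 2253 in Vps15LKO mice, a 141-fold higher mean. It was close to background in all WT livers and abundant in all Vps15LKO livers. Icam1, a leukocyte adhesion molecule, rose from 294 ± 24.2 to 1274 ± 6.81 (2.11, adjusted p = 8.99e-07), Nfkb2, which encodes the p100 precursor, from 176 ± 6.20 to 791 ± 27.5 (2.16, adjusted p = 7.03e-07), and Tnfaip3, the feedback inhibitor A20, from 63.3 ± 8.39 to 377 ± 25.9 (2.56, adjusted p = 1.98e-06). Icam1 shares 11.7% of its exonic bases with the antisense transcript Gm47079, itself at 68.7 to 105 normalized counts in WT mice and 343 to 379.5 in Vps15LKO mice, and reads of the pair cannot be told apart unless strand was used in counting. Tnf was at 11.2 ± 5.62 in WT and 61.5 ± 6.36 in Vps15LKO livers. Nfkbia, which encodes IκBα and is among the fastest NF-κB targets, was at 896 ± 89.1 and 934 ± 29.5 (0.06, adjusted p = 0.588), though the total-read scaling (0.79) and quantile normalization (0.26) called it higher.

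**Figure D2:**
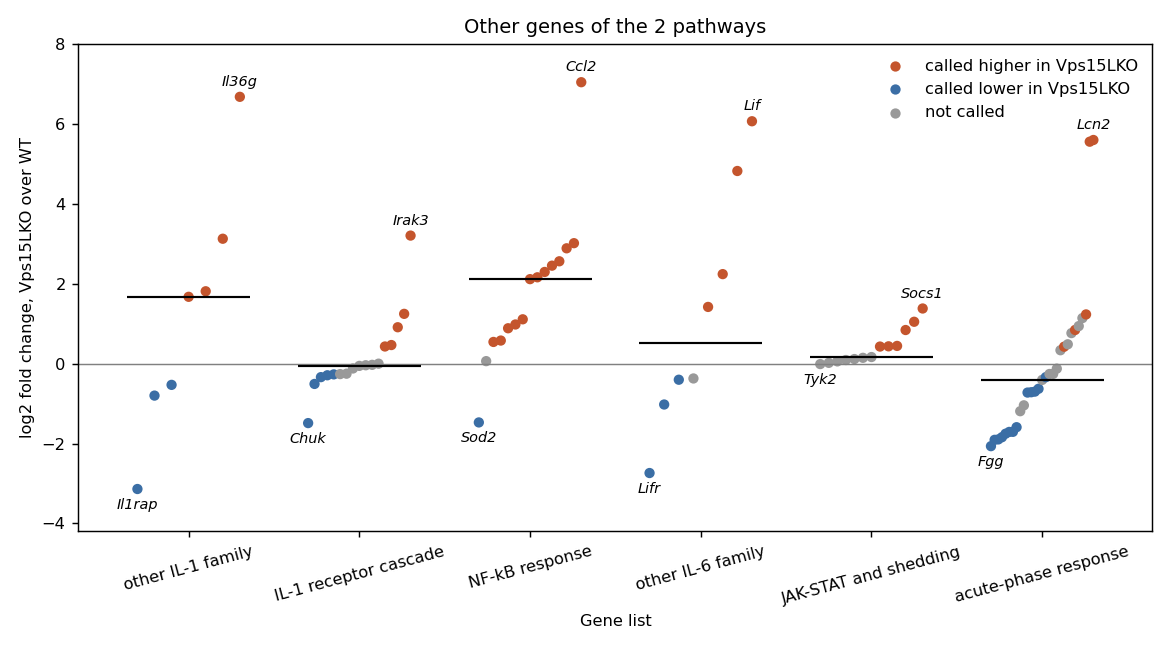
Log2 fold change of Vps15LKO over WT (y) for each tested gene of 6 lists (x), coloured by the call in limma, with the median over all tested genes of a list as a horizontal line. The highest and lowest called genes of each list are named, except that Tyk2, at the low end of its list, was not called. The NF-κB line at 2.11 would lie at 1.11 without Tnf and Ccl2, those of the other IL-1 and IL-6 family genes at −0.53 and −0.39 without the genes set by the filter, and the values of Il36g and Lif rest on 1 read in the WT libraries.

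On the IL-6 side the ligand itself was hardly detected. Il6 had 1, 0 and 0 reads in the WT libraries and 1, 3 and 2 reads in the Vps15LKO libraries, each library holding at least 16137093 reads. No library exceeded 3 reads, the limit that a count of 0 allows, so no fold is given. In limma without the filter Il6 was not called (adjusted p = 0.173). Il11, named after its values were seen, had 0 reads in each WT library and 3, 3 and 2 in the Vps15LKO libraries. The same fit called Il11 higher (1.59, adjusted p = 0.00506). Leukaemia inhibitory factor and oncostatin M, which share gp130 with IL-6, were detected in Vps15LKO liver. Lif had 1 read over the WT libraries and 120, 95 and 131 reads in the Vps15LKO libraries, a ratio of 201 (exact 95% counting interval 35.8 to 7954). Osm had 1 read over the WT libraries and 8, 9 and 19 in the Vps15LKO libraries, a ratio of 20.9 (3.52 to 848). It did not pass the filter, and limma without the filter called it higher (adjusted p = 0.00148). Clcf1, another ligand of the family, went from 11.01 ± 4.98 normalized counts in WT mice to 326 ± 84.4 in Vps15LKO mice, and 8.17% of its exonic bases are shared with a transcript on the same strand, AC109138.7. Lif and Clcf1 passed the filter only through the Vps15LKO livers and so had to differ.

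The receptors moved in opposite directions, and gp130 was not called. Il6ra was at 1139, 1480.2 and 1348 normalized counts in WT mice and at 446, 453 and 407 in Vps15LKO mice. Each Vps15LKO liver was below every WT liver. The mean fell from 1322 ± 172 to 435 ± 25.0, 3.04-fold lower, with a log2 fold change of −1.59 ± 0.11 and an adjusted p of 8.26e-06. It was −0.87 with the total-read scaling and −1.46 with quantile normalization, both called lower. Il6ra (chromosome 3, 89864059 to 89913196, minus strand) shares 2.80% of its exonic bases with the antisense transcript Gm42809, which had at most 53.9 normalized counts in any liver.

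Osmr was at 92.8, 79.9 and 84.9 normalized counts in WT mice and at 460.5, 426 and 659 in Vps15LKO mice. The lowest Vps15LKO liver was several times above the highest WT liver. The mean was 5.999-fold higher, with a log2 fold change of 2.55 ± 0.17 and an adjusted p of 6.30e-06, and the value was 3.27 with the total-read scaling and 2.36 with quantile normalization. Lifr, the neighbouring receptor gene 215.6 kb away on chromosome 15 with no coding gene between, moved the other way. It was at 6168, 6068 and 10769 normalized counts in WT mice and at 1079, 1431 and 878 in Vps15LKO mice (−2.74 ± 0.25, adjusted p = 2.66e-05, and −2.01 with the total-read scaling). WT replicate 3 was the highest of the WT livers, and the groups did not overlap.

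Il6st was at 3190.2, 3982 and 3625 normalized counts in WT mice and at 3603, 4154 and 3691 in Vps15LKO mice. The groups overlapped and the log2 fold change was 0.09 with a 95% interval from −0.18 to 0.35 (adjusted p = 0.525). Both the total-read scaling, at 0.81, and quantile normalization, at 0.70, called Il6st higher. Ratios of reads within a library do not depend on the total-read or any other scaling by 1 factor per library, though quantile normalization can move them. Il6ra stood at 0.357, 0.372 and 0.372 reads per Il6st read in WT mice and at 0.124, 0.109 and 0.110 in Vps15LKO mice. Osmr stood at 0.0291, 0.0201 and 0.0234 in WT mice and at 0.128, 0.103 and 0.179 in Vps15LKO mice. Lifr went from 1.93, 1.52 and 2.97 to 0.299, 0.345 and 0.238. None of these 3 ratios overlapped between genotypes. With 1 added to each normalized count, the differences were −1.68, 2.46 and −2.83 on the log2 scale, each at the smallest exact permutation p of 0.1 (adjusted p = 0.15). These are ratios of reads and not of molecules, since the genes differ in length.

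**Figure D3:**
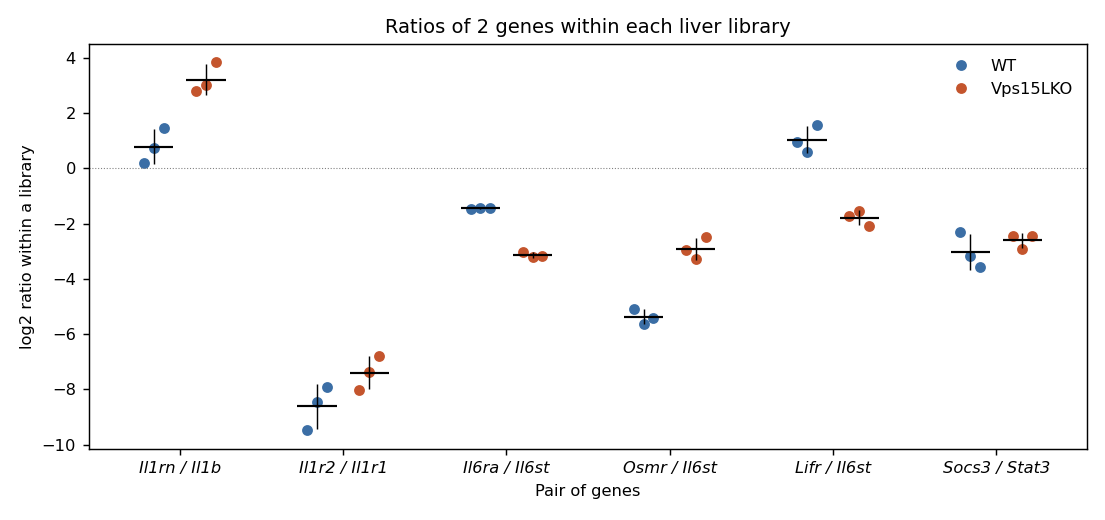
Log2 ratio of the normalized counts plus 1 of 2 genes within each library (y) for 6 pairs of genes (x), with WT livers in blue and Vps15LKO livers in orange. Horizontal lines are group means and vertical lines 1 SD (n = 3). Il1rn over Il1b and Osmr over Il6st lie higher, and Il6ra over Il6st and Lifr over Il6st lower, in all Vps15LKO livers than in all WT livers, while Socs3 over Stat3 overlaps.

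The other ligands and receptors of the IL-6 family numbered 13, of which 8 were tested, among them Lif and Clcf1, whose calls the filter fixed. Of the other 6 tested genes 2 were called higher and 3 lower, against 33.5% and 33% of all genes, with a median of −0.39, which would be 0.52 with Lif and Clcf1. Il11ra1, the binding receptor of IL-11, fell by 0.40 on the log2 scale (adjusted p = 0.00815) with the deposited scaling and was called higher, at 0.32, with the total-read scaling.

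Stat3 was at 2371, 2663 and 2149 normalized counts in WT mice and at 2496, 2532 and 2468 in Vps15LKO mice. The Vps15LKO livers lay within the range of the WT livers. The log2 fold change was 0.07 with a 95% interval from −0.17 to 0.30 (adjusted p = 0.581), and the total-read scaling (0.79) and quantile normalization (0.54) called it higher. Of its exonic bases 0.756% are shared with Stat5a on the opposite strand. These are transcript levels, and the phosphorylation through which STAT3 is activated was not measured in these libraries.

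Socs3, the STAT3 target that blocks gp130 signalling, was at 484, 292 and 182 normalized counts in WT mice and at 459.7, 335 and 448 in Vps15LKO mice. WT replicate 1 was the highest of all 6 livers and WT replicate 3 the lowest, so the groups overlapped. The log2 fold change was 0.47 ± 0.31 with a 95% interval from −0.24 to 1.18 (adjusted p = 0.207). It was 0.83 without WT replicate 1 and was then called higher (adjusted p = 0.0177), as it was with the total-read scaling, at 1.197, and it was 0.12 without WT replicate 3 (adjusted p = 0.651). Relative to Stat3 reads it was 0.204, 0.110 and 0.0847 in WT mice and 0.184, 0.132 and 0.182 in Vps15LKO mice, a log2 difference of 0.41 (exact permutation p = 0.4, adjusted p = 0.4).

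The kinases and regulators of the JAK-STAT step and the proteases that shed receptors made up 13 genes, of which 6 were called higher, none lower in limma, and 7 not called, with a median of 0.17. The total-read scaling called all 13 higher, against 66.8% of all genes, and the 6 of the deposited scaling stand against 33.5%. Of all genes 33% were called lower with the deposited scaling and 11.1% with the total-read scaling. No gene of the list was lower at an unadjusted p under 0.05, and edgeR, DESeq2, limma voom, the total-read scaling and quantile normalization each called 0 lower. Jak2 rose from 409.5 ± 61.1 to 548 ± 42.5 normalized counts (0.43, adjusted p = 0.0164), a call lost without Vps15LKO replicate 1 (adjusted p = 0.0612). Jak1 (0.09, adjusted p = 0.386) and Tyk2 (−0.01, adjusted p = 0.94) were not called, though both were with the total-read scaling, at 0.82 and 0.71. Adam17, the protease that releases IL-6Rα and TNF from the cell surface, rose from 489 ± 19.4 to 664 ± 88.2 (0.43, adjusted p = 0.00884). Socs1, a related feedback inhibitor, rose from 15.97 ± 5.70 to 41.7 ± 3.62 (1.38, adjusted p = 0.00257), and with quantile normalization it was at 0.54 and not called.

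Promoter windows are shown for the ligand, for the receptor that fell and for the STAT3 target, each as the 250 bases before the RefSeq start on GRCm38.p6, 5′ to 3′ on the strand of the gene. They lie at chr5:30012864-30013113 (plus strand) for Il6, chr3:89913197-89913446 (minus strand) for Il6ra and chr11:117969367-117969616 (minus strand) for Socs3. Capitals mark motif matches on either strand.
Il6: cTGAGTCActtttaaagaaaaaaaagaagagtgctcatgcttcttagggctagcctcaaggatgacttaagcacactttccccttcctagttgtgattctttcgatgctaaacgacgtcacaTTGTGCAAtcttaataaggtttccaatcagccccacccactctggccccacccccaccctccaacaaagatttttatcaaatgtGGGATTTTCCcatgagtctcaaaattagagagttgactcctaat
Il6ra: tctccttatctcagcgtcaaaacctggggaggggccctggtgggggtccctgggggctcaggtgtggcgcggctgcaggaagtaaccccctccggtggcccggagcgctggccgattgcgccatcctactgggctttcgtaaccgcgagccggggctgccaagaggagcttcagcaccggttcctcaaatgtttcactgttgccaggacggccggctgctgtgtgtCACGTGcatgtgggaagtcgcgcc
Socs3: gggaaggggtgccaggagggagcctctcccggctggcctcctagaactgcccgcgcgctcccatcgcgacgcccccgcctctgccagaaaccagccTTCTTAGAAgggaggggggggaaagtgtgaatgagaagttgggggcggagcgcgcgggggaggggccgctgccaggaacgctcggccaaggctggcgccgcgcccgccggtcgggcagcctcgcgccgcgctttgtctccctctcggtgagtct
The Il6 window holds TGANTCA 249 bases, TTGCNNAA, the C/EBP motif, 128 bases and the NF-κB consensus 44 bases before the start. The Il6ra window holds CACGTG, an E-box of the kind that Clock and Bmal1 can bind, 24 bases before the start. The Socs3 window holds TTCNNNGAA, the STAT motif, 154 bases before it. Matches of letters are no measured binding sites, and binding at these windows was not tested here. These motifs occur in 6.75%, 9.56%, 5.93%, 6.02% and 7.02% of all promoter windows, in the order named. The windows of Il1b, Il6st, Osmr and Stat3 hold none of the 6 motifs searched, which speaks only of these letters in these 250 bases, and the Osmr window lies within a first exon that GENCODE annotates as 5′ UTR.

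The acute-phase genes of hepatocytes were called in both directions. Of 29 genes, Timp1 passed the filter only through the Vps15LKO livers and so had to differ. Of the other 28 genes 4 were called higher and 13 lower, against 33.5% and 33% of all genes, and their median was −0.52, against −0.02 for all genes and −0.41 with Timp1 included. Over all 29 the direction of the median depended on the scaling. It was 0.32 with the total-read scaling (13 higher and 8 lower, against 66.8% and 11.1% of all genes). With quantile normalization it was 0.21 (12 higher and 8 lower, against 4692 and 5801 of the 15430 genes). Lcn2, a siderophore-binding protein that IL-1, IL-6 and injury induce, was at 158, 249 and 506 normalized counts in WT mice and at 14607, 9359 and 16658 in Vps15LKO mice (5.60 ± 0.39, adjusted p = 6.93e-06). All Vps15LKO livers were far above the WT livers. Orm2, an α1-acid glycoprotein, rose from 371 ± 104 to 663 ± 156 (0.84, adjusted p = 0.00821), Cebpd, a transcription factor of the response, from 143 ± 25.6 to 339 ± 74.4 (1.23, adjusted p = 5.55e-04) and the metalloreductase Steap4 from 2037 ± 209 to 2742 ± 408 (0.42, adjusted p = 0.0191). The call of Steap4 was lost without WT replicate 1, Vps15LKO replicate 1 or Vps15LKO replicate 2 (adjusted p up to 0.0704). The more abundant Orm1, named after its values were seen, fell from 11792 ± 485 to 3590.1 ± 1011 (−1.75, adjusted p = 7.38e-05), and Orm3 was at −1.19 and not called, though quantile normalization called it lower (−1.51).

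Classical targets of IL-6 and IL-1 in hepatocytes were among those that fell. The 10 hepatocyte markers fell too, with a median log2 fold change of −1.48 with the deposited scaling. How far that fall bears on these targets was not tested. Fgb, the fibrinogen β chain, fell from 89522 ± 1107 to 27819 ± 6129.9 normalized counts (−1.71, adjusted p = 3.33e-04), and with quantile normalization it was at −0.25 and not called. Hamp, the iron hormone hepcidin that IL-6 induces through STAT3, was at 20433, 14591 and 11656 normalized counts in WT mice and at 4872, 2979 and 5197 in Vps15LKO mice (−1.84 ± 0.26, adjusted p = 2.94e-04). The groups did not overlap, and Hamp was called lower with the total-read scaling (−1.12) and with quantile normalization (−0.90). Saa3, a serum amyloid A made by several cell types, fell from 78.6 ± 9.06 to 25.6 ± 4.71 (−1.59, adjusted p = 2.05e-04). Cebpb, the factor first named for its binding to the IL-6 gene, fell from 3038 ± 350.2 to 1846 ± 164 (−0.72, adjusted p = 6.74e-04), and was at 0.01 with the total-read scaling. Cebpb shares 20.7% of its exonic bases with Tmem189 on the opposite strand, itself at 1212 to 1602 normalized counts in WT mice and 881 to 950.0 in Vps15LKO mice, and the same limit on strand holds.

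The serum amyloid genes most used as markers of the response were not called by limma. Saa1 was at 358, 381 and 1813 normalized counts in WT mice and at 322, 363 and 240.5 in Vps15LKO mice (−1.04 ± 0.55, adjusted p = 0.122), and edgeR called it lower (−1.43, adjusted p = 0.0488). The high value was that of WT replicate 3 alone. Saa2, a close copy with which it can share reads, was at 163, 161 and 376 in WT mice and at 173, 233 and 144 in Vps15LKO mice (−0.26, adjusted p = 0.509), again with WT replicate 3 highest. The haptoglobin gene Hp (0.34, adjusted p = 0.179), the endotoxin carrier Lbp (−0.26, adjusted p = 0.0712) and the kinase Pim1 (−0.41, adjusted p = 0.189) were not called either. The total-read scaling called Hp (1.06) and Lbp (0.47) higher, and quantile normalization called Hp higher (1.66).

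Per kilobase of exon, on the scale of normalized counts, Il1rn and Il6ra exchanged places in the order of the 10 genes. In WT livers it ran from Il6st (324 ± 35.7) and Stat3 (251 ± 27.1) through Il6ra (153 ± 19.9), Il1r1 (125 ± 13.3), Socs3 (110.5 ± 52.9), Il1a (58.6 ± 20.9), Il1b (16.6 ± 5.79), Il1rn (9.64 ± 1.69) and Osmr (7.09 ± 0.536) to Il6 (0.182 ± 0.315). The ranges of neighbours overlapped for Il6ra and Il1r1, Il1r1 and Socs3, Socs3 and Il1a, and Il1b and Il1rn. In Vps15LKO livers Il6st (344 ± 26.7) and Stat3 (262 ± 3.32) were again highest and Osmr (42.5 ± 10.4) and Il6 (0.633 ± 0.346) lowest. Il1rn stood at rank 3 (154 ± 10.1) in place of 8 and Il6ra at rank 8 (50.4 ± 2.89) in place of 3. Between them came Socs3 (143 ± 23.9), Il1r1 (118 ± 21.1), Il1a (104.5 ± 23.4) and Il1b (50.7 ± 19.6). In Vps15LKO livers the ranges overlapped for Il1rn and Socs3, Socs3 and Il1r1, Il1r1 and Il1a, Il1b and Il6ra, and Il6ra and Osmr.

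**Figure D4:**
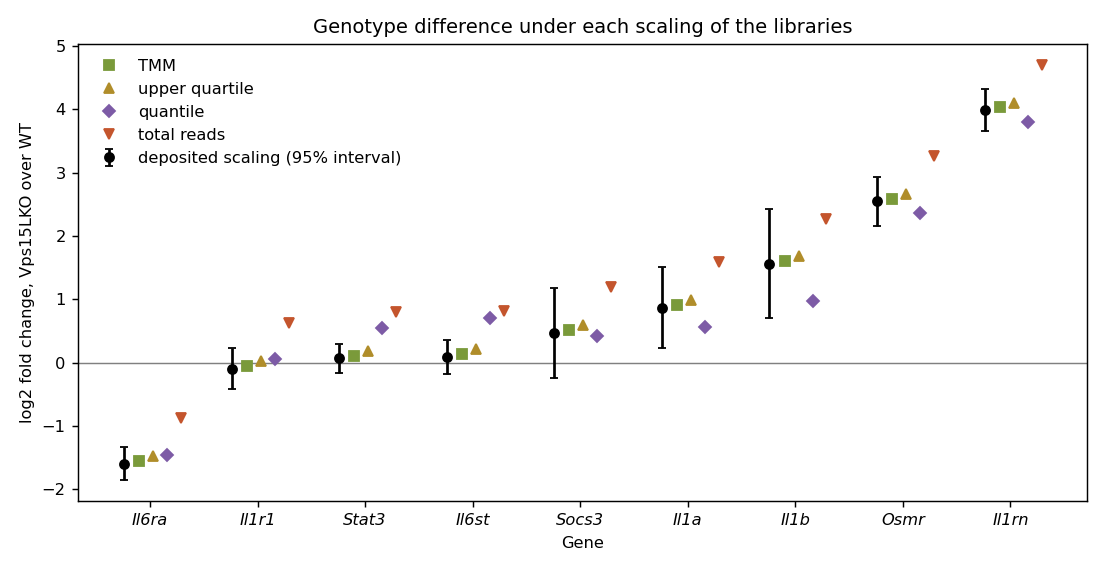
Log2 fold change of Vps15LKO over WT (y) of the 9 tested genes (x) with the deposited scaling (black, 95% interval from limma) and 4 other scalings of the libraries. Il1rn, Osmr, Il1b and Il1a lie above 0 and Il6ra below 0 under all of them, whereas Il1r1 is at −0.09 with the deposited scaling and at 0.63 with the total-read scaling.

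Cell type markers differed between the genotypes alongside these genes. Their counts stand against 33.5% of all tested genes called higher and 33% called lower with the deposited scaling. All 8 markers of recruited macrophages were called higher, of which Trem2 and Gpnmb passed the filter only through the Vps15LKO livers, their summed level running from 1408 to 2029 normalized counts in WT mice and from 14649 to 18368 in Vps15LKO mice. Cd68 rose from 416 ± 16.6 to 3707 ± 68.4 and Lyz2 from 1154 ± 293 to 6205 ± 762. Of 9 Kupffer cell markers 7 were called higher (sums 7964 to 8858 and 22447 to 26999.7), with C1qb rising from 1386 ± 91.5 to 5913 ± 221 and C1qa from 1019 ± 27.4 to 3859 ± 112, while the resident-cell markers Clec4f and Timd4, named after their values were seen, were not called by limma with the deposited scaling. Clec4f was called higher by edgeR (0.47, adjusted p = 0.0384), DESeq2 and limma voom and with upper-quartile, total-read and quantile scaling, and Timd4 was called lower with quantile normalization. Neutrophil markers were near background in WT, with sums of 78.7 to 89.0 over 12 genes against 619 to 802 in Vps15LKO livers, and Ly6g, Ngp and Mpo had no read in WT. Of these 6 were tested and called higher, 5 of them having passed the filter only through the Vps15LKO livers.

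All 10 markers of stellate cells and fibroblasts were called higher (sums 6977 to 7468 and 26911 to 31228), as were all 7 of cholangiocytes (1269 to 1419 and 12339 to 23807), among them Cftr, which passed the filter only through the Vps15LKO livers, with Spp1 going from 551 ± 53.4 to 14767 ± 5184. Lymphocyte markers summed to 106 to 140.2 and 308 to 359 (5 of 6 tested higher, 4 of the 6 tested having passed only through the Vps15LKO livers). Of 11 endothelial markers 4 were called higher and 7 lower (sums 9396 to 10270.1 and 7081 to 9188), against 33.5% and 33% of all genes. The total-read scaling called 6 of them higher and 0 lower, against 66.8% and 11.1% of all genes. Quantile normalization called 4 and 4, against 4692 and 5801 of the 15430 genes. Of 10 hepatocyte markers 8 were called lower and none higher in limma, with 0 higher at an unadjusted p under 0.05 and 0 by edgeR or DESeq2 (sums 3087800.0 to 3556430.0 and 1007990.0 to 1494560.0), and none was at 0 in any liver. Il1a, Il1b, Il1rn and Osmr rose in the same libraries in which myeloid, stellate and cholangiocyte markers rose. Il6ra, Il1rap, Lifr, Fgb and Hamp fell in those in which hepatocyte markers fell. The part of these markers in the results for the 10 genes and the pathway lists was not tested.

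**Figure D5:**
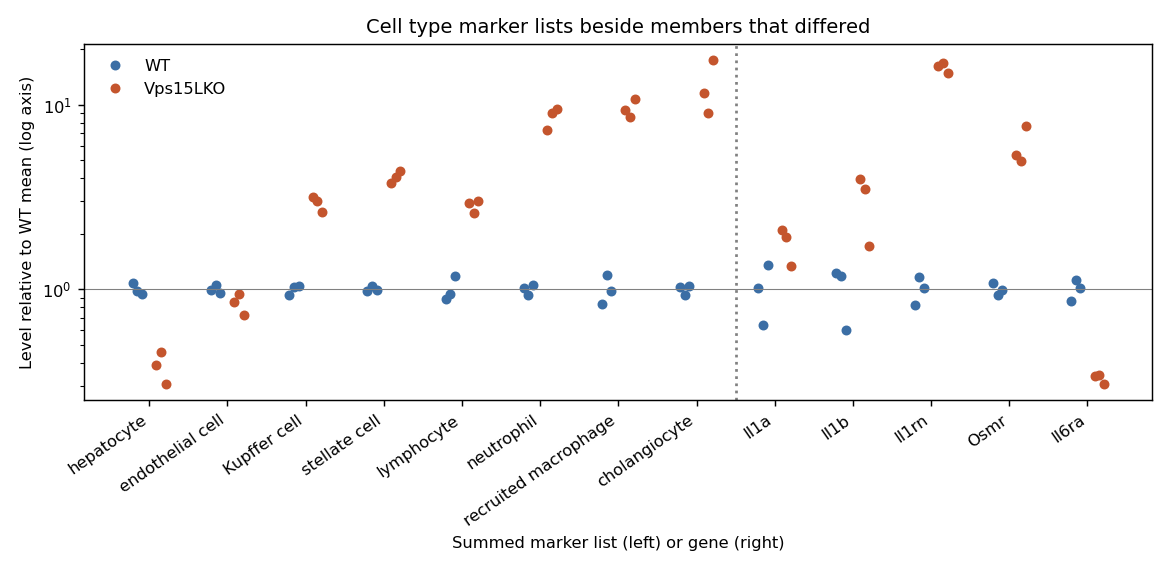
Level in each liver relative to the WT mean (y, log axis) of 8 summed marker lists (left of the dotted line) and of the 5 called genes (right), with WT livers in blue and Vps15LKO livers in orange. The summed macrophage, neutrophil and cholangiocyte markers and Il1rn lie far above the WT mean in all Vps15LKO livers, and the hepatocyte sum and Il6ra lie below it.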

How the data were processed

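RNA-Seq of 3 WT and 3 Vps15LKO livers was grouped by the genotype in the sample labels. The libraries were made from polyA RNA with a second strand marked by uracil. Per the methods, reads were cleaned by SOAPnuke and aligned by HISAT2 to GRCm38, featureCounts (Subread) gave the counts and DESeq2 the normalization. Versions and the settings for strand and multi-mapping reads are not given in the sources used here. The deposited values, for 56305 genes, are a signal: the authors scaled the counts of a library by its size factor. Undoing this scaling gave whole reads for 100% of the values (within 0.01 reads). No column of per-sample values was left out (0 columns).

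After a filter of 20 normalized counts in 3 or more livers, genotypes were compared on log2(normalized count + 1) with limma 3.58.1 (eBayes with trend; R 4.3.3). P-values of all 15430 genes were adjusted together by Benjamini-Hochberg, and calls needed an adjusted p below 0.05 plus a 1.2-fold difference. On the recovered reads edgeR 4.0.16 called 10205 genes and limma 10262. Intervals on sums of reads are exact and cover counting error only, with 3 reads taken as the limit that a count of 0 allows. Fits were first tested on simulated data. The simulation changed far fewer genes than were called here, as many up as down, so it could not test the choice of scaling. Within-library ratios were compared, as log2 ratios of normalized counts plus 1, with two-sided exact permutation tests. The added 1 leaves some dependence on the scaling where a gene has few reads. P-values measure the spread between these livers. The chi-square per gene between replicates lay between 14.6 and 40.8, so all libraries differed beyond sampling noise, with the largest values for Vps15LKO replicates 2 and 3 (40.8) and for WT replicate 3 against replicates 1 (34.0) and 2 (29.7).

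The 10 genes, the 6 pathway lists and the 8 marker lists were chosen with earlier results of these data known. Named were the 10 genes, Pik3r4, genes of the pathways picked by name and the 2 markers per list with most reads per length, of which some are given. Il36a, Il36b, Il36g, Il36rn and Tf were matched through synonyms. Symbols, coordinates and exon lengths come from GENCODE M21 (55227 genes matched), and promoter windows from RefSeq on GRCm38.p6, in which all 10 genes were found (13 windows). Alternatives were other pseudocounts, filters, scalings, thresholds and tools (DESeq2 1.42.0, edgeR, limma voom, limma without a trend), each liver left out, and replicate number as a block. Tables and plots were made with Python 3.11.15, pandas 2.3.3, scipy 1.17.1 and matplotlib 3.10.9.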

Additional observations from a re-analysis of the deposited data

How the results depend on the processing

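Of the results for single genes among the 10, 170 kept their direction and side of the threshold under the alternatives, 7 lost and 6 gained a call, and 5 reversed, of which Il1r1 with the total-read scaling also gained a call. With a minimum of 20 in all livers Il1b was not tested. The reversals were Il1r1 with upper-quartile (0.029), total-read (0.63) and quantile (0.059) scaling and without Vps15LKO replicate 1 (0.0026, and −0.23 at the other end when a liver was left out), and Stat3 without WT replicate 3 (−0.0081, and 0.15 at the other end). The total-read scaling called 8 of the 10 genes higher and 64 of the genes of the 6 pathway lists higher and 12 lower, against 37 and 25 with the deposited scaling. Of all tested genes 66.8% were called higher and 11.1% lower with the total-read scaling, and 33.5% and 33% with the deposited scaling. The pathway counts include Il1rl2, Il36g, Tnf, Ccl2, Lif, Clcf1 and Timp1, whose calls the filter fixed. A 2-fold threshold called 5185 of the 15430 genes (3228 higher and 1957 lower), against 10262, and 24 higher and 13 lower in the pathway lists. Leaving out each liver in turn called 9098 to 10222 of the 15430 genes (4648 to 5152 higher and 4450 to 5070 lower). It called 3 or 4 of the 10 genes higher and 1 lower, and 34 to 38 higher and 20 to 28 lower in the pathway lists. Il1rn, Il1b, Osmr and Il6ra kept their calls in all 6 of these fits and Il1a in 2. The log2 differences of the ratios then ran from 2.11 to 2.76 for Il1rn over Il1b, 0.79 to 1.58 for Il1r2 over Il1r1 (0.38 with a pseudocount of 10 and 2.33 with 0.1), −1.74 to −1.65 for Il6ra over Il6st, 2.25 to 2.64 for Osmr over Il6st, −3.04 to −2.56 for Lifr over Il6st and 0.13 to 0.76 for Socs3 over Stat3. With replicate number as a block 10048 genes were called, 4 of the 10 higher and 1 lower. Deviations of livers with the same number correlated at −0.0099, −0.0114 and 0.0485, so the numbers do not pair the livers. Depth limits Il6, Il1r2 and Osm, which did not pass the filter. Without it only Osm of these was called (higher). Where an alternative moved a value, the cause was not tested.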

Other observations

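Several genes of both pathways lie next to each other. On chromosome 1 the receptor genes Il1r2, Il1r1, Il1rl2, Il1rl1, Il18r1 and Il18rap follow one another with gaps of 99.8, 7.35, 62.0, 0.136 and 14.5 kb and no other coding gene between them. Of these Il1r1 was not called, Il1rl2 passed the filter on low values only through the Vps15LKO livers, and the other 4 did not pass it. In limma without the filter Il1rl1 (2.30, adjusted p = 0.0253) and Il18rap (1.68, adjusted p = 0.0461) were called higher, and Il1r2 and Il18r1 were not called. On chromosome 11, Lif and Osm lie 16.5 kb apart, each with 1 read over the WT libraries and with 346 and 36 reads over the Vps15LKO libraries.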
